A study of Mus musculus with 4 samples.

Results

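The type I interferon antiviral genes and their regulators were followed in chemically transformed C3H10T1/2 cells with and without phorone. The group was a list of 48 genes, 15 regulators (interferon receptors, Janus kinases, STAT2 and the interferon regulatory factors) and 33 effectors (the antiviral genes that interferon switches on), chosen by name on the array. Probes under these names existed for 47 of the 48, on 74 probes, and none carried the name Herc6. Of these genes 44 were measured, meaning that both arrays of 1 group or the other were well above background, out of 17031 genes measured in all. C3H10T1/2 is a mouse embryo fibroblast line. All 4 samples had first been transformed with 2.5 µg/ml of 3-methylcholanthrene (3MC), a polycyclic carcinogen, for 2 days and, after 4 days in normal medium, with 100 ng/ml of TPA, a phorbol ester, given 2 times a week over 2 weeks, and had then grown for 4 weeks without either. The control group (n = 2 arrays) was these transformed cells, and the phorone group (n = 2 arrays) was the same cells given 2 mM phorone, an unsaturated ketone that binds glutathione. How long the exposure lasted, in what vehicle, and whether foci were pooled is not given in the sources used here. Nothing in the labels makes the 2 samples of a group separate cultures. The p-values therefore reflect only the scatter among these 4 arrays, and that scatter may be technical.

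Type I interferons signal through a receptor of the chains IFNAR1 and IFNAR2, which carry the kinases TYK2 and JAK1. These phosphorylate STAT proteins, among them STAT2, which joins IRF9 in a complex that binds the interferon-stimulated response element in the promoters of antiviral genes. IRF3 and IRF7 act upstream, inducing the interferons themselves after a virus is sensed, and interferon in turn induces many of the sensors and signalling proteins of its own pathway. Fibroblasts are a classical interferon-responding and interferon-producing cell type.

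The promoters are shown first, because the response element is a feature that many effectors share in their sequence. The effectors were listed as genes that interferon switches on, so a high share with the element may follow from that choice. The RefSeq promoter table (GRCm38.p6), covering 250 bases before to 50 bases after each start, held 37 of the 48 genes. It was searched on both strands for the core of the element, which is GAAA, any 2 bases and GAAA again (TTTC, any 2 bases and TTTC on the other strand), with overlapping matches counted. The core was found for 12 of 22 effectors (54.5%) and 2 of 15 regulators (13.3%), against 3.99% of all 27025 genes with a promoter in the table. Stretches before the start are given below for 5 effectors and for Stat2, the regulator of the pair whose signal differed between the groups. They read 5′ to 3′ along the gene, with the matches in capitals and up to 25 bases on either side.
Isg15 (chr4:156200850-156200921, minus strand, bases -103 to -32 from the start): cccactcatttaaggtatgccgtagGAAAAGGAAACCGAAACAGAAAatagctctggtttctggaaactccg
Ifit1 (chr19:34640760-34640838, plus strand, bases -129 to -51): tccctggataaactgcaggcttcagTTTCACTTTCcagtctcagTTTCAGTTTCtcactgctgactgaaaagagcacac
Ifit3 (chr19:34583348-34583441, plus strand, bases -181 to -88): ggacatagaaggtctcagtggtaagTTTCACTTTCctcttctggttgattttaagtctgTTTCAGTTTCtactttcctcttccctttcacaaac
Oas1a (chr5:120907526-120907570, minus strand, bases -45 to -1): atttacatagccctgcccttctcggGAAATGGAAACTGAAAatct
Rsad2 (chr12:26456538-26456597, minus strand, bases -145 to -86): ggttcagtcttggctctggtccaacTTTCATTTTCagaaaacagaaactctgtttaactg
Stat2 (chr10:128270251-128270310, plus strand, bases -247 to -188): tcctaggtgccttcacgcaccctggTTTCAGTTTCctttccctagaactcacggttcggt

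Isg15 held 3 overlapping matches and Oas1a held 2, while Ifit1 and Ifit3 each held 2 that lay apart. A second motif, TTCNNNGAA, the core of the element bound by STAT dimers, was found for 6 of 22 effectors (27.3%) and 5 of 15 regulators (33.3%), against 9.55% of all genes. A match is a string of letters in this window and no proof of a binding site, and the absence of one says only that these letters are missing there.

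**Figure D1:**
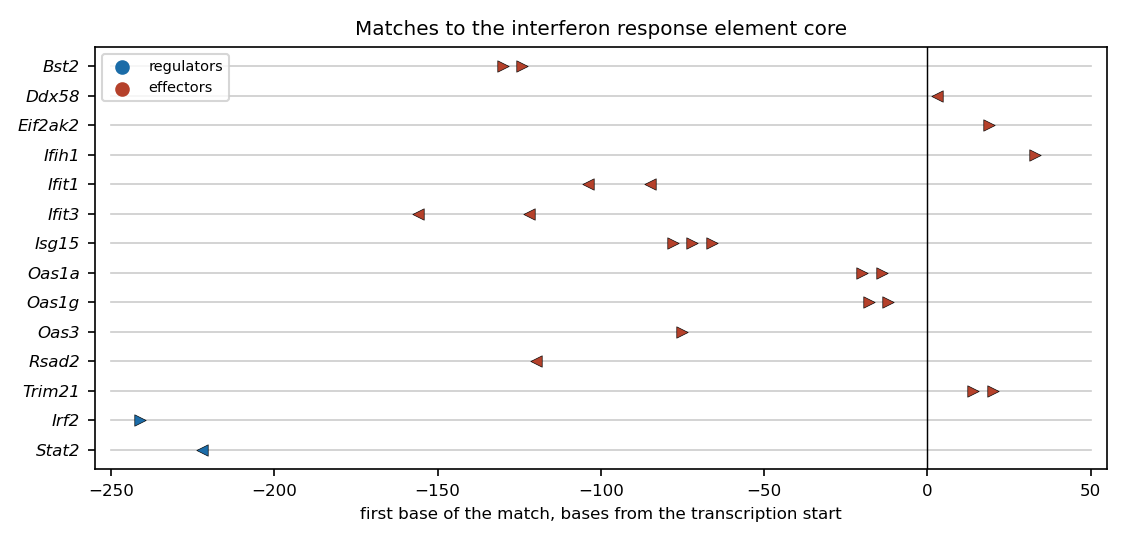
Position of each match to the response element core in the promoters of the 14 genes that held one, in bases from the transcription start; each point is the first base of a match, each grey line is 1 promoter window, triangles point along the strand of the match, blue marks regulators and red effectors. The 3 Isg15 matches begin between -78 and -66, and those of Oas1a and Oas1g begin closest before the start, at -20 to -12.

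On each array 51.1% to 52.7% of spots cleared the background, and 0 were saturated. The 75th percentile of signal was 701 and 747 in control, 563 and 572 with phorone. Each value below is the log2 signal minus its array's 75th percentile; it can be compared between arrays for the same probe but not between probes. In limma 21.3% of all genes were called lower and 24.3% higher with phorone (Benjamini-Hochberg adjusted p below 0.05), so a call alone is common in these cells. The cells carried fibroblast markers: all 10 fixed ones were above background, with 7 called lower, and their summed signal was 1616 and 1680 times the 75th percentile on the control arrays and 749 and 789 times on the phorone arrays. Of 10 macrophage markers 5 were above background, 2 lower (Lyz2, and Lyz1, which was dark with phorone) and 1 higher (Cd68), with a summed signal of 4.20 and 5.05 in control and 5.01 and 5.07 with phorone. Defining leukocyte markers such as Ptprc, Itgam and Fcgr1 were well above background on 0 arrays. Of the 6 T and natural killer cell markers, 5 endothelial and 5 epithelial markers, 1 each was above background. Tek, the endothelial one, was called lower and not well above background with phorone, and the endothelial sum was 0.127 and 0.176 in control and 0.0536 and 0.063 with phorone. Of 7 dendritic and B cell markers 2 were, and Tcf4 was called lower, with a summed signal of 6.66 and 7.63 in control and 2.99 and 2.74 with phorone. The part of the changed markers in the interferon results was not tested. In such bulk samples, fewer cells of a type and less RNA per cell cannot be told apart.

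The antiviral effectors were lower with phorone, with 1 exception that did not pass the test. Of 30 measured effectors 29 were called lower and 0 higher, against the 21.3% of all genes called lower, with a median log2 fold change of -2.29 (-2.21 with bounds for Mx1, which was dark with phorone) and a range of -5.32 to -0.48. Over all genes tested the median was 0.08. Regulators were divided: of 14 measured, 6 were called lower and 1 higher, with a median of -0.17 that turned to 0.26 under spike-in scaling. The difference between regulators and effectors is a description and was not tested, since the classes were written with results of these data known. Mx1, Irf5 and Cmpk2 entered through the control arrays alone. Mx1 and Irf5, dark on both phorone arrays, had to be lower, and for Cmpk2, dark on 1 of them, the filter favoured a fall. Among genes above background on all 4 arrays, 27 of 28 effectors and 5 of 13 regulators were called lower. A fit of such genes alone gave the same counts, against 3276 of 15716 genes called lower in all.

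**Figure D2:**
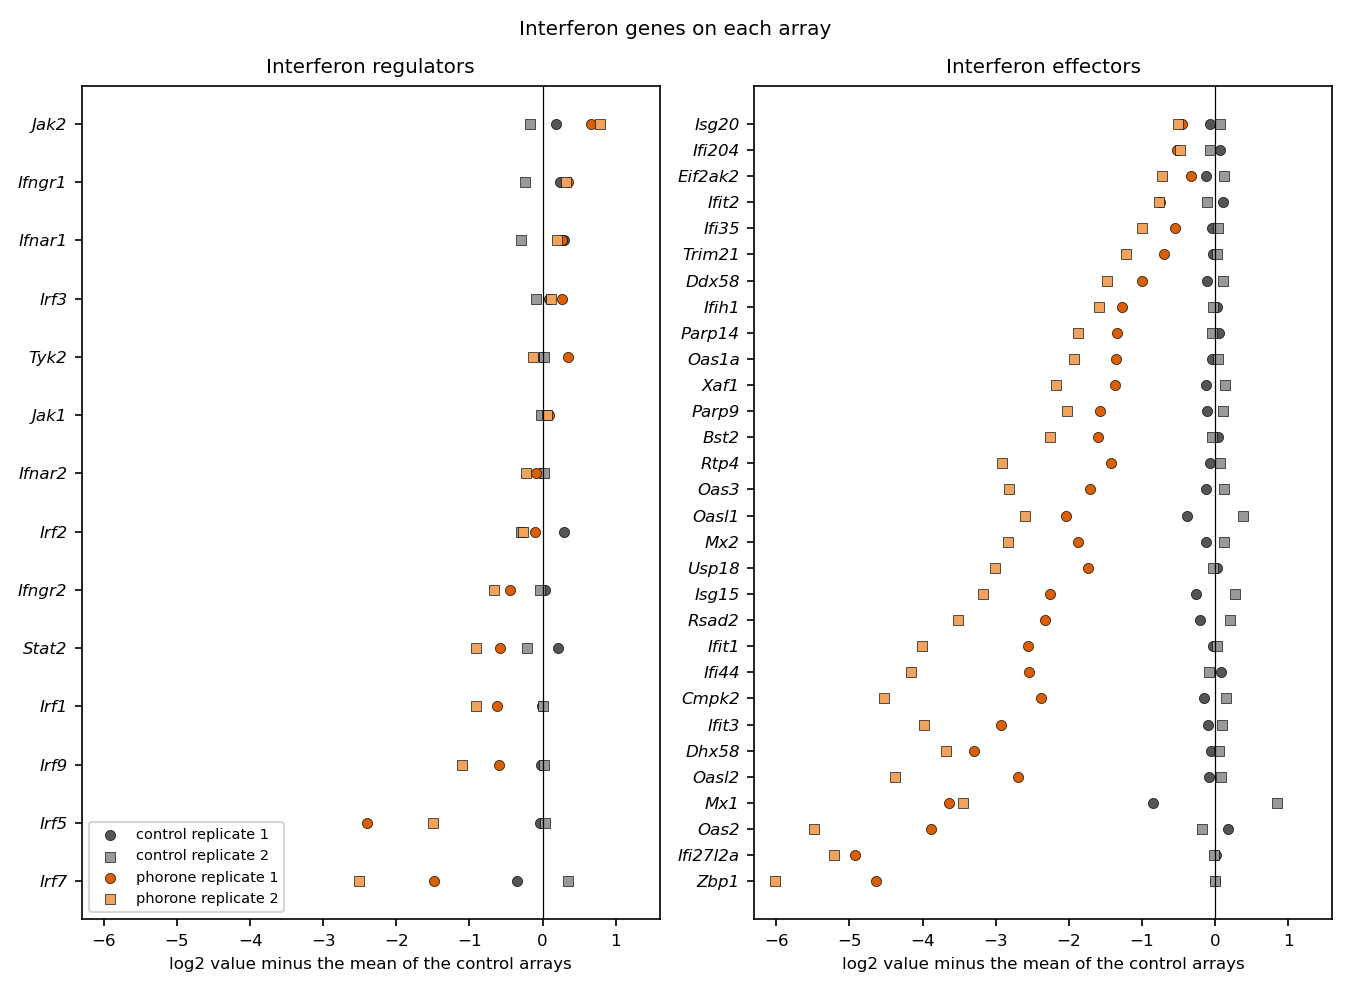
Log2 value of each measured interferon gene on each array minus the mean of the 2 control arrays (x axis), for 14 regulators (left) and 30 effectors (right), ordered by their change; grey symbols are control arrays and orange symbols phorone arrays. Both phorone arrays lie below both control arrays for all 28 effectors above background on all 4 arrays, which held for 32.6% of all such genes, and most receptor and kinase genes lie near 0; the phorone points of Mx1 and Irf5 are not well above background.

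Of the 7 receptor chains and kinases, 5 did not pass the test, with a median of 0.11 over the class. Ifnar1, the signalling chain of the type I receptor, stood at 1.97 and 1.39 on the control arrays and at 1.95 and 1.87 with phorone, so the groups overlapped (log2 fold change 0.23, 95% confidence interval -0.33 to 0.79, adjusted p = 0.424). Ifnar2, its partner, stood at 2.00 and 2.04 in control and 1.93 and 1.79 with phorone (-0.16, interval -0.48 to 0.16, adjusted p = 0.334). Neither change passed the test. A dimmer Ifnar2 probe had -0.54 and was not called either (adjusted p = 0.0587 over all probes). Jak1 gave 4.22 and 4.17 against 4.29 and 4.25 (0.07, interval -0.23 to 0.38). Tyk2 gave 0.27 and 0.30 against 0.64 and 0.16 (0.11, interval -0.38 to 0.60), with overlapping groups. Ifngr1, the ligand-binding chain of the interferon gamma receptor, gave 4.59 and 4.12 against 4.71 and 4.67 (0.34, adjusted p = 0.204).

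The other chain of that receptor and the remaining kinase moved in opposite directions. Ifngr2 stood at 2.45 and 2.39 in control and at 1.98 and 1.76 with phorone, without overlap, and fell by 0.55 (SE 0.14, adjusted p = 0.0264). Its other probe had -0.29 and was not called. Jak2, which serves the interferon gamma receptor and many cytokine receptors, stood at 1.38 and 1.02 in control and at 1.86 and 1.99 with phorone. It was the 1 member called higher, with a rise of 0.72 (SE 0.17, adjusted p = 0.0222). A dim second Jak2 probe had 0.25, not called. Both calls were thin. Ifngr2 was not called without control replicate 1 (-0.52), control replicate 2 (-0.58), phorone replicate 1 (-0.66) or phorone replicate 2 (-0.45) or under spike-in scaling (-0.12). Jak2 was not called without phorone replicate 1 (0.79) or phorone replicate 2 (0.66), nor with the mean of its probes (0.49). Without control replicate 1, which carried the higher control values of both genes, Ifnar1 (0.52) and Ifngr1 (0.57) were called higher.

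Among the transcription factors 5 of 7 measured were called lower and 0 higher, against 21.3% and 24.3% of all genes. Of the 5, Irf5 entered through the control arrays alone and could only be lower. Irf7, the factor that amplifies interferon production and is itself induced by interferon, stood at 0.34 and 1.04 in control and at -0.80 and -1.82 with phorone. It fell by 2.00 (SE 0.41, adjusted p = 0.0148), or 4.00-fold, though it was not called without control replicate 2 (-1.65, adjusted p = 0.0634). The 2 groups did not overlap for Irf7, but the arrays within each group lay 0.69 and 1.02 apart. Irf9, the DNA-binding partner of STAT2, went from 1.50 and 1.54 to 0.92 and 0.42, a fall of 0.85 (SE 0.20, adjusted p = 0.0223). Stat2 went from 2.14 and 1.71 to 1.34 and 1.01, a fall of 0.75 (SE 0.21, adjusted p = 0.0363). Irf1, a factor of both interferon types, went from 4.21 and 4.23 to 3.59 and 3.30, a fall of 0.77 (SE 0.15, adjusted p = 0.0126), with -0.45 on its dimmer probe. Irf9, Stat2 and Irf1 thus fell less than 2-fold, and their calls depended on single arrays: Irf9 was not called without control replicate 1 (-0.87), control replicate 2 (-0.83) or phorone replicate 2 (-0.60), Stat2 without control replicate 1 (-0.54) or phorone replicate 2 (-0.58), and Irf1 without phorone replicate 2 (-0.63). Under spike-in scaling Irf9, Stat2 and Irf1 had -0.41, -0.31 and -0.34 and were not called.

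Irf3, the constitutive factor that responds to viral sensing, stood at 3.12 and 2.95 in control and at 3.30 and 3.15 with phorone (0.19, interval -0.16 to 0.54, adjusted p = 0.303). Irf2, which can repress IRF1 targets, stood at 0.98 and 0.38 in control and at 0.57 and 0.41 with phorone, and the groups overlapped (-0.18, adjusted p = 0.534). Irf5 was dim, at -4.26 and -4.18 in control, and not well above background with phorone. It was at least 1.37-fold lower, a direction fixed by the filter. Its fitted difference of -1.95 shrank to -0.14 and was not called after normexp background correction. Irf8, a factor of myeloid cells, was not well above background on any array on either of its 2 probes. In all, 3 regulators were called lower when either control array was left out and 2 without phorone replicate 2. Without the filter on dim probes 1 was.

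**Figure D3:**
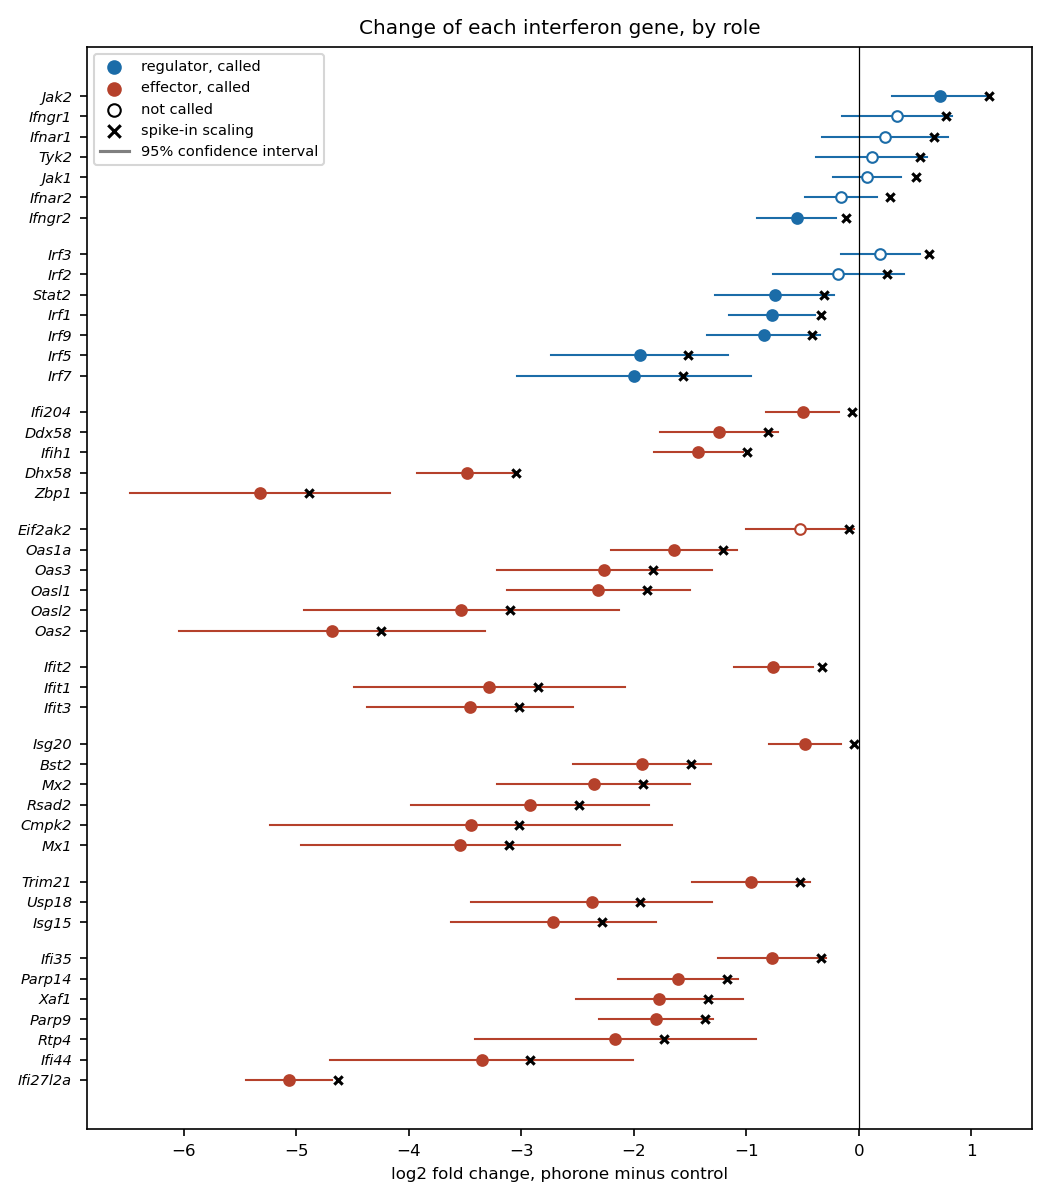
Log2 fold change (phorone minus control, x axis) of each measured gene, grouped by role from receptors and kinases at the top to other induced genes at the bottom; lines are 95% confidence intervals, filled points passed the test (adjusted p below 0.05), open points did not, and crosses give the value under spike-in scaling. Receptors and kinases scatter around 0, whereas all 30 effectors lie below 0 under both scalings; for Mx1 and Irf5, dark with phorone, the point is a fitted value and not a bound.

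All 5 sensors of foreign nucleic acid in the list were called lower, by very unequal amounts. Zbp1, a sensor of Z-form nucleic acid that can start necroptosis, stood at 2.49 on both control arrays and at -2.15 and -3.53 with phorone, a fall of 5.32 (SE 0.45, adjusted p = 0.00141), or 40.1-fold. Its other probes gave -5.20 and -4.95. The size for Zbp1 depended on the array, with -6.02 without phorone replicate 1 and -4.63 without phorone replicate 2, and it was -4.48 after normexp correction. Dhx58 (LGP2), which tunes the RNA sensors, went from 1.61 and 1.73 to -1.62 and -2.01, a fall of 3.49 (SE 0.17, adjusted p = 0.000417). Both genes were far outside the spread of their replicates. The RNA sensors themselves fell less. Ddx58 (RIG-I) went from 2.32 and 2.54 to 1.43 and 0.95, a fall of 1.24 (SE 0.20), and its 3 other probes gave -2.15 to -1.26, all called. Ifih1 (MDA5) went from -0.30 and -0.36 to -1.61 and -1.92, a fall of 1.43 (SE 0.15), while a dim second probe had -0.62 and was not called. Ifi204, a member of the DNA-sensing p200 family, fell by 0.50 (SE 0.13, adjusted p = 0.0286) from 3.95 and 3.80 to 3.35 and 3.40. It was not called without control replicate 1 (-0.43), phorone replicate 1 (-0.47) or phorone replicate 2 (-0.53), and its other probes gave -0.35, not called, and -1.25, called. Probes of this family may share signal, so the value is uncertain. Under spike-in scaling Ddx58 (-0.81), Ifih1 (-0.99) and Ifi204 (-0.07) were not called.

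The oligoadenylate synthetases make the second messenger that activates RNase L when double-stranded RNA is present. All 5 measured ones were called lower. Oas2 fell most, from 2.44 and 2.08 to -1.63 and -3.22 (-4.69, SE 0.53, adjusted p = 0.00296, 25.7-fold; -3.91 after normexp correction), with -2.69 on a second probe that was not well above background with phorone. Oasl2 went from 2.26 and 2.42 to -0.36 and -2.04 (-3.53, SE 0.55) and Oasl1, a relative that lacks the catalytic activity, from -1.56 and -0.80 to -3.21 and -3.77 (-2.32, SE 0.32). Oas3 fell by 2.26 (SE 0.37), with -1.61 on its other probe. After normexp correction Oas3 had -1.50 and Oasl1 -1.32. Without phorone replicate 1 and without phorone replicate 2, Oas2 had -5.48 and -3.89, and Oasl2 -4.38 and -2.69. Oas1a went from 2.59 and 2.66 to 1.27 and 0.69 (-1.65, SE 0.22, adjusted p = 0.0045). Its paralog Oas1g, whose promoter also held a pair of overlapping core matches, was not well above background on any array. Probes of such close paralogs may share signal, so their values are uncertain. Eif2ak2 (PKR), the kinase that halts translation on double-stranded RNA, was the 1 measured effector that was not called: it stood at 2.48 and 2.73 in control and at 2.27 and 1.88 with phorone (-0.52, SE 0.19, adjusted p = 0.0744), and was called after normexp correction (-0.53).

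The IFIT proteins, which bind foreign RNA ends and block its translation, were all lower. Ifit3 went from 4.60 and 4.80 to 1.77 and 0.72, a fall of 3.45 (SE 0.36, adjusted p = 0.00234), and Ifit1 from 1.94 and 1.99 to -0.60 and -2.04, a fall of 3.29 (SE 0.47, adjusted p = 0.00547). Ifit2 fell by 0.76 (SE 0.14, adjusted p = 0.0107), from 0.54 and 0.31 to -0.33 and -0.35, with -1.23 on its other probe. The 3 genes all lie on chromosome 19, and Ifit2 changed least. Ifit1 had -4.01 without phorone replicate 1 and -2.56 without phorone replicate 2. Ifit2 lost its call under spike-in scaling (-0.33) and without phorone replicate 2 (-0.75).

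All 6 genes that act on virus entry, budding and nucleotides were called lower, against 21.3% of all genes. Mx1 and Cmpk2 entered through the control arrays alone, while the others could have gone either way. Mx1, a dynamin-like GTPase, was at -4.25 and -2.55 in control and not well above background with phorone. It could thus only be lower, by at least 2.42-fold on the mean of the control arrays (log2 -1.27). These lay 1.70 apart, the fitted value was -4.39 without control replicate 1 and -2.69 without control replicate 2, and after normexp correction it was -0.81, smaller than that bound. Mx2 went from 1.40 and 1.65 to -0.35 and -1.31, a fall of 2.36 (SE 0.33). Bst2 (tetherin), which holds budding virions at the cell surface, went from 5.78 and 5.70 to 4.14 and 3.48, a fall of 1.93 (SE 0.24, adjusted p = 0.00381). Rsad2 (viperin) and Cmpk2, whose products together make a chain-terminating nucleotide, fell by 2.92 (SE 0.41) and 3.45 (SE 0.70). Rsad2 went from 0.89 and 1.29 to -1.24 and -2.43, and its second kept probe gave -1.93. It had -3.52 without phorone replicate 1 and -2.33 without phorone replicate 2. Cmpk2 was well above background on 1 of the 2 phorone arrays, at -3.92 and -6.07, and was not called without control replicate 1 (-3.60) or control replicate 2 (-3.30). It had -4.53 without phorone replicate 1, -2.38 without phorone replicate 2 and -1.57 after normexp correction. Isg20, an exonuclease, changed least, from 1.15 and 1.28 to 0.76 and 0.71 (-0.48, SE 0.12, adjusted p = 0.031), with -0.53 on its other probe, also called. It was not called without control replicate 2 (-0.41), phorone replicate 1 (-0.50) or phorone replicate 2 (-0.45), nor under spike-in scaling (-0.04).

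ISG15 is a ubiquitin-like modifier that is attached to other proteins during the interferon response, and USP18 removes it and also blocks signalling at IFNAR2. Isg15 went from 3.37 and 3.90 to 1.38 and 0.46, a fall of 2.72 (SE 0.36, adjusted p = 0.00441). Usp18 went from 2.31 and 2.26 to 0.54 and -0.73, a fall of 2.38 (SE 0.42, adjusted p = 0.00977). The groups were well apart, with 1.99 between the nearest arrays for Isg15 and 1.72 for Usp18. Usp18 had -3.01 without phorone replicate 1 and -1.74 without phorone replicate 2. Trim21, an antibody receptor and ubiquitin ligase of the cytosol, fell by 0.96 (SE 0.20, adjusted p = 0.0173) from -0.72 and -0.65 to -1.38 and -1.90. It was not called without control replicate 1 (-0.99), control replicate 2 (-0.93) or phorone replicate 2 (-0.69), nor under spike-in scaling (-0.52). Trim25, the ligase that activates RIG-I, was not well above background on either of its 2 probes, and Herc6 was not analysed here.

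The remaining 7 induced genes were all called lower. Ifi27l2a stood at 5.63 and 5.60 in control and at 0.70 and 0.41 with phorone, a fall of 5.07 (SE 0.15, adjusted p = 0.000204, 33.5-fold), with -5.05 on its other probe. Ifi44 went from 2.55 and 2.39 to -0.08 and -1.69 (-3.35, SE 0.53). Rtp4, a chaperone of membrane receptors that is strongly induced by interferon, went from 4.95 and 5.07 to 3.59 and 2.10 (-2.17, SE 0.49, adjusted p = 0.0201). Its phorone arrays lay 1.49 apart. Left with 1 of them, Rtp4 had -2.91 (without phorone replicate 1) and -1.42 (without phorone replicate 2), and Ifi44 -4.16 and -2.55. Rtp4 was not called without control replicate 1 (-2.23) or control replicate 2 (-2.10). Parp9 and Parp14, ADP-ribosyltransferase family members, fell by 1.80 (SE 0.20) and 1.61 (SE 0.21), and a second Parp14 probe gave -1.36, while its dimmest was not well above background with phorone. Xaf1, which antagonises the apoptosis inhibitor XIAP, fell by 1.77 (SE 0.29). Ifi35 fell by 0.77 (SE 0.19, adjusted p = 0.025). It was not called without control replicate 1 (-0.81), control replicate 2 (-0.73) or phorone replicate 2 (-0.55), nor under spike-in scaling (-0.34).

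Among measured effectors whose promoter was searched, those with and without the response element core had similar median changes. The effectors with the largest falls, Zbp1 (-5.32), Ifi27l2a (-5.07) and Oas2 (-4.69), had no promoter to search and are not included. The 11 measured effectors with a match in the promoter window had a median log2 fold change of -1.93 (-3.45 to -0.52, 10 called lower), and the 8 with a promoter in the table but no match had -2.04 (-3.53 to -0.48, 8 called lower). Stat2, the regulator whose promoter is printed above, had -0.75, and Irf2, the other regulator with a match, had -0.18. These are descriptions of few genes with no test. Where genes had several probes the direction mostly held: 16 of 17 members with more than 1 kept probe had the same sign on all of them. Jak1 was the exception, with 0.07 and -0.17, neither called.

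The effectors also differed together between the 2 phorone arrays. Phorone replicate 2 lay below phorone replicate 1 for 28 of 30 effectors (93.3%), against 49.3% of all genes, with a median difference of -0.62 where all genes had 0.003. For 11 effectors it lay lower by at least 1, which held for 0.851% of all genes. Cmpk2 is among the 11 through a value on phorone replicate 2 that was not well above background, so its gap has no exact size. Oasl2 (-1.69), Ifi44 (-1.61) and Oas2 (-1.60) had wide gaps measured on both arrays. The control arrays showed no comparable gap, with a median difference of 0.12 for effectors and 0.03 for all genes. Regulators had a smaller median of -0.16 between the phorone arrays, with Irf7 lowest at -1.02, but 12 of 14 also lay lower on phorone replicate 2. The phorone group thus had a wide spread for these genes, and the effector median was -2.82 without phorone replicate 1 and -1.73 without phorone replicate 2. With phorone replicate 1 as the lone phorone array, the 28 effectors above background on all 4 arrays all had a negative change, as did 43.4% of all such genes. The cause of the gap was not tested.

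**Figure D4:**
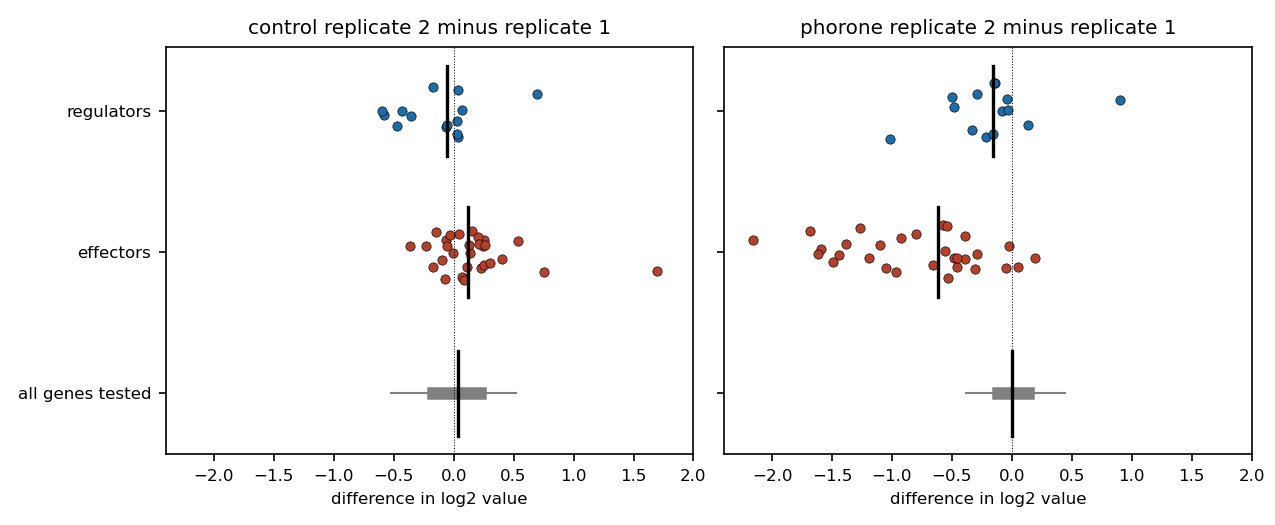
Difference in log2 value between the 2 arrays of a group, for control (left) and phorone (right); points are the 14 regulators and 30 effectors, black bars are medians, and for all genes the thick and thin grey lines span the 25th to 75th and 5th to 95th percentiles. Effectors lie mostly left of 0 in the phorone panel, with a median of -0.62, and around 0.12 in the control panel.

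The rest of the interferon pathway was read from 4 further lists of 109 genes, of which 87 were measured, 47 called lower (54.0%) and 7 higher (8.05%), against 21.3% and 24.3% of all genes, with a median of -0.63. Interferon genes themselves were mostly dark. Of 19 ligand genes 18 were on the array and 5 were measured, with 0 called lower and 2 higher. Ifnb1, the interferon that fibroblasts make first, was not well above background on any array, and neither was Ifng. Ifnz and Ifnab rose by 0.58 (SE 0.17, adjusted p = 0.0398) and 0.52 (SE 0.15, adjusted p = 0.0404). Both belong to a cluster of near-identical genes and are uncertain. Neither was called without control replicate 1 (0.55 and 0.38) or phorone replicate 2 (0.40 and 0.57), and further calls were lost for Ifnz without control replicate 2 (0.61) and for Ifnab without phorone replicate 1 (0.47). Ifnab was well above background on 1 control array, and under spike-in scaling neither gene was called (1.02 and 0.95).

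Of 18 measured adaptors and kinases of viral sensing 3 were called lower and 3 higher (16.7% each), no larger shares than the 21.3% and 24.3% of all genes, with a median of -0.10. Ikbke, an interferon-induced kinase that activates IRF3, went from -1.98 and -2.09 to -3.62 and -3.88 (-1.71, SE 0.15, adjusted p = 0.00144), and had -0.86 after normexp correction. Its constitutive relative Tbk1 rose by 1.09 (SE 0.22, adjusted p = 0.0153), from 2.09 and 1.53 to 2.79 and 3.00. Cgas, the sensor of cytosolic DNA, rose by 1.09 (SE 0.14, adjusted p = 0.00386), from -0.72 and -0.62 to 0.32 and 0.51. The helicase Ddx41 rose by 0.79 (SE 0.14), though it was not called without phorone replicate 1 (0.73). The RNA receptor Tlr3 and the adaptor Traf3 fell by 0.67 (SE 0.14) and 0.60 (SE 0.16). Tlr3 was not called without phorone replicate 1 (-0.62) or phorone replicate 2 (-0.73), nor Traf3 without control replicate 1 (-0.67), control replicate 2 (-0.53) or phorone replicate 1 (-0.45), and neither was called under spike-in scaling (-0.24 and -0.17).

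Of 19 feedback inhibitors 7 were called lower (36.8%) and 2 higher (10.5%), against 21.3% and 24.3% of all genes, with a median of -0.40. Under spike-in scaling 2 were called lower and 1 higher, and the median was 0.03. The SOCS proteins, which block Janus kinases and are induced by the signal they stop, were lower: Socs2 by 1.94 (SE 0.16), Socs3 by 1.64 (SE 0.20) and Socs1, the main brake on the interferon receptors, by 1.17 (SE 0.12, adjusted p = 0.00231). Socs1 went from 2.25 and 2.18 to 1.08 and 1.01, and under spike-in scaling had -0.73 and was not called. The phosphatase Ptpn6 fell by 1.55 (SE 0.18), with -1.12, not called, under spike-in scaling and -0.81 after normexp correction. Pias2 and Otud5 rose by 0.69 (SE 0.16) and 0.68 (SE 0.14). Both lost the call, at nearly the same size, without phorone replicate 1 (0.68 and 0.67) or phorone replicate 2 (0.70 and 0.69). The mean of the 4 Pias2 probes gave 0.16 and was not called, and Otud5 was not called under spike-in scaling (1.11).

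Further interferon-induced genes outside the 48 were mostly lower as well, 37 of 45 measured (82.2%) and 0 higher, against 21.3% and 24.3% of all genes, with a median of -1.26. Under spike-in scaling 19 were called lower and 1 higher, with a median of -0.83. Phorone replicate 2 lay below phorone replicate 1 for 39 of the 45, with a median difference of -0.29. Slfn2 fell by 3.71 (SE 0.31, adjusted p = 0.00131; -2.48 after normexp correction), the immunoproteasome subunit Psmb8 by 3.39 (SE 0.14, adjusted p = 0.000286), and Phf11a by 2.95 (SE 0.22, adjusted p = 0.00103). This list was written with earlier results on interferon genes in these samples known.

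**Figure D5:**
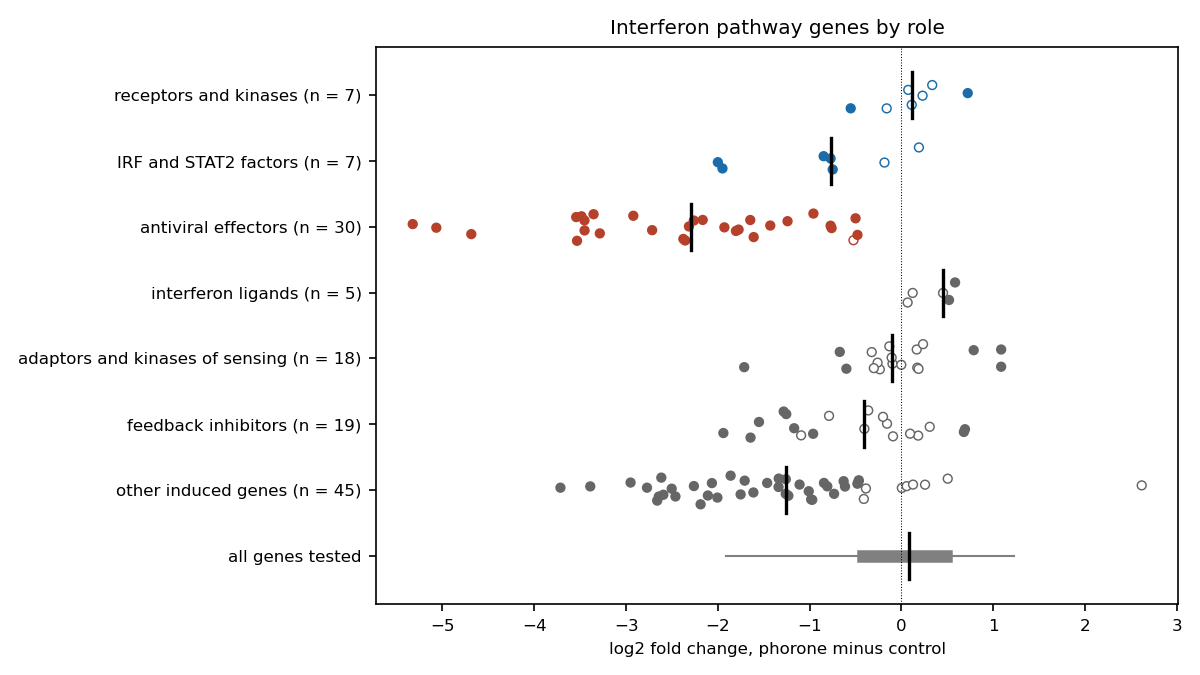
Log2 fold change (phorone minus control, x axis) of the measured genes by role, for the 3 classes of the interferon list and 4 further pathway lists; filled points were called, black bars are medians, and for all genes the thick and thin grey lines span the 25th to 75th and 5th to 95th percentiles. Effectors (median -2.29) and other induced genes (-1.26) lie lowest, and receptors and kinases (0.11) and sensing adaptors and kinases (-0.10) lie near the median of all genes, 0.08.

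Under spike-in scaling all changes rise by the same amount, and the median of all genes then stood at 0.52. With 7.09% of all genes called lower and 16.9% higher under that scaling, 22 of 30 effectors were called lower and 0 higher (median -1.85), as were Irf5 and Irf7, with Jak2 the 1 regulator called higher (1.16). Of the effectors 20 kept their call under each of the 13 other settings that gave them a value, and all 30 had a negative change under each. Of all genes, at most 7.09% can have been called lower under each, the share under spike-in scaling. At most 44.8% can have been negative under each, the share without phorone replicate 2. Mx1 was fixed to a negative change by the filter, and Cmpk2 was favoured by it.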

How the data were processed

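Total RNA from 4 samples was measured on 1-colour Agilent arrays. The scanner intensity was deposited as processed by Feature Extraction 10.7.3.1, background subtracted and unscaled between arrays, per the file headers. A second table deposited by the authors has log2 values that differed from those used here by a constant per array (SD at most 0.0223). The slide and scan were shared by all arrays, but each group filled its own slide row, so effects of row and group cannot be told apart. Groups and replicate numbers came from the sample titles.

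The log2 signal was reduced by each array's 75th percentile over 61657 spots outside the controls. Spots flagged as outliers were left out (111 probes), and spots of a probe were averaged. The brightest of a gene's probes that cleared the background on both arrays of either group stood for it. RefSeq accessions (GRCm38.p6) named 69.3% of gene probes. All 17031 genes were fitted with limma 3.58.1 in R 4.3.3 (lmFit, eBayes, two-sided, 2 residual and 3.03 prior degrees of freedom, Benjamini-Hochberg); the fit was tested on simulated data. A gene dark in a group was bounded by the dimmest probe well above background on each array (higher of that and its own value). The number of arrays limits precision. Members and lists were chosen with earlier results of these data known. All members are accounted for; of each pathway list up to 3 called genes each way with the largest change are named, plus Ifnb1 and Socs1; 1 further gene that the rule names is not reported here. Alternatives covered background correction, scaling, filters, probes, the replicate block and leaving out each array.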

Additional observations from a re-analysis of the deposited data

How the results depend on the processing

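Effector calls ranged from 22 (spike-in scaling) to 30 (normexp) lower and 0 higher over 13 alternatives. The effector median was -1.59 after normexp correction, and -2.82 to -1.73 with 1 array left out. The regulator median turned to 0.26 under spike-in scaling. Regulators called lower numbered 2 under spike-in scaling, 1 with no filter on dim probes and 2 to 5 with 1 array left out. Regulators called higher numbered 0 with no filter or with probes averaged, and 0 to 3 with 1 array left out. Other pathway genes called lower numbered 22 under spike-in scaling, and those called higher 2 with no filter and 3 to 8 with 1 array left out. Over all genes, 1208 were called lower under spike-in scaling, and 2305 higher with no filter and 2088 to 3961 with 1 array left out.

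Same-numbered arrays did not deviate together (r = -0.02 across genes). They did share a slide column, 3 for replicate 1 and 4 for replicate 2. Whether they also shared a culture or a day is not given in the labels, and this correlation cannot settle it. With the replicate number as a block, 27 effectors and 6 regulators were called lower and 1 regulator higher, against 3369 genes lower and 3630 higher in all; effector calls lost there were those of Ifi204 and Isg20. Of 569 member values under the alternatives, 57 lost and 3 gained a call, and no called value changed sign. Testing each kept probe separately, an alternative chosen after seeing the data, gave 29 effectors and 6 regulators lower. Signal over background limits Mx1, Irf5 and Cmpk2, and left Irf8, Oas1g and Trim25 without a measured change.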
